A study of Drosophila melanogaster with 3 samples.

Results

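Core promoter peaks of single genes were the CrebB binding peaks centred on the transcription start site (TSS) of 1 gene, with no other protein-coding gene starting nearby. A peak was counted when its summit lay within 100 bp of an annotated TSS of a protein-coding gene and no other protein-coding gene had a TSS within 500 bp of the summit. The rule was met by 679 of the 3915 peaks of the optimal list, the list of peaks that passed the authors' reproducibility threshold. They belonged to 663 genes, and 16 genes, CrebB among them, had 2 core promoter peaks each. Of the other 3236 optimal peaks, 799 lay more than 100 and up to 500 bp from TSSs of 1 gene, 657 lay within 500 bp of TSSs of more than 1 gene and 1780 lay farther than 500 bp from every protein-coding TSS.

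The data were chromatin immunoprecipitation and sequencing (ChIP-seq) of CrebB in whole Drosophila melanogaster embryos aged 0 to 24 h, with males and females pooled, in 3 biological replicates. All embryos came from 1 transgenic line that stably expresses CrebB with GFP fused to its C-terminus, so the series held 1 group and no untreated or wild-type group. The labels disagree on 1 point: the antibody and the assay are given as ChIP of CrebB, but a free-text field speaks of an input control. The antibody field set the group used here. The embryos were whole organisms, so a peak cannot be assigned to a cell type, and peak lists offer no marker with which to check the labelled stage.

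CrebB is the fly homologue of CREB, a basic leucine zipper factor that binds the cAMP response element (CRE) and activates transcription when protein kinase A phosphorylates it, with known roles in long-term memory and in circadian rhythm. Fly core promoters fall into broad kinds. The DNA replication-related element (DRE), the site of M1BP (also called Ohler motif 1) and Ohler motifs 5, 6 and 7 mark promoters of broadly expressed genes, the TATA box, initiator and downstream promoter element (DPE) mark many developmentally regulated genes, and the polypyrimidine TCT element replaces the initiator at genes of the translation machinery.

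The promoter sequences below, from 100 bases upstream of the TSS to 29 bases downstream of it, are those on which the results turn: 3 of the strongest peaks, which carry none of the 13 elements searched, then examples of the elements that were more frequent at core peaks, all promoters with a CRE palindrome, and 1 with a TATA box. Capitals mark the element for which the sequence is shown. The sequences are written 5′ to 3′ on the strand of the gene, from the RefSeq copy of the Release 6 genome (dm6).
CG14100 (no element, chr3L:19590495-19590624, - strand): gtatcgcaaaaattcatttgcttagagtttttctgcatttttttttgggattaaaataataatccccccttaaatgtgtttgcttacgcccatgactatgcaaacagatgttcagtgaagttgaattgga
Ugalt (no element, chrX:2703823-2703952, - strand): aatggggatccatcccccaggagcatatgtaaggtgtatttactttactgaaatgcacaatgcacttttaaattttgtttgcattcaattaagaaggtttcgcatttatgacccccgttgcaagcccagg
PNPase (no element, chr3R:31404711-31404840, - strand): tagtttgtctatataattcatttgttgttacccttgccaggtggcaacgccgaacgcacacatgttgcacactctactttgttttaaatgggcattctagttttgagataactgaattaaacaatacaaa
eEF1gamma (DRE, chr3R:29220072-29220201, + strand): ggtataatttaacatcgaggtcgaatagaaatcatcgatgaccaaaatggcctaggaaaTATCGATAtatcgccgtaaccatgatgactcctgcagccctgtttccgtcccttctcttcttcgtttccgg
RpS10b (DRE, chrX:19597931-19598060, + strand): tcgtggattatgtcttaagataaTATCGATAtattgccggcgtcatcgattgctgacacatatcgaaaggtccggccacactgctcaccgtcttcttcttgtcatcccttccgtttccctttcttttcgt
Adsl (M1BP site, chr3R:17021091-17021220, - strand): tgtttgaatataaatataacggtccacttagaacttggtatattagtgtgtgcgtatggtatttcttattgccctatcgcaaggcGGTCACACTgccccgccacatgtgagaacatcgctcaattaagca
RpS4 (TCT, chr3L:13041701-13041830, + strand): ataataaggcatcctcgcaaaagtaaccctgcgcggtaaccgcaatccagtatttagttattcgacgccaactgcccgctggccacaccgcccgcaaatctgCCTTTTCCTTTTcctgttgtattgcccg
RpL23A (TCT, chr3L:1668625-1668754, - strand): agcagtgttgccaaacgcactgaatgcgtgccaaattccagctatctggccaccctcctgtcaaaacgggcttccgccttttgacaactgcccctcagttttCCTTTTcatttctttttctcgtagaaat
Cmpk (CRE, chr3R:26055409-26055538, - strand): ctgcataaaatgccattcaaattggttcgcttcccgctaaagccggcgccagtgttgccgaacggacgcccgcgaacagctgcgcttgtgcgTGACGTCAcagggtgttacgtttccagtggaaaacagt
Unr (CRE, chr3L:8442352-8442481, - strand): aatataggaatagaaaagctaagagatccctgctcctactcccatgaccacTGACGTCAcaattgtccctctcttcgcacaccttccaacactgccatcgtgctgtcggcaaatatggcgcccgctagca
CG7656 (CRE, chr3L:15588146-15588275, - strand): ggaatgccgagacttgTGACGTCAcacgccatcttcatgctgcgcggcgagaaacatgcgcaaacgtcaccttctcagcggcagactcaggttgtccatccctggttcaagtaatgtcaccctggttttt
CG6689 (CRE, chr3R:11220035-11220164, - strand): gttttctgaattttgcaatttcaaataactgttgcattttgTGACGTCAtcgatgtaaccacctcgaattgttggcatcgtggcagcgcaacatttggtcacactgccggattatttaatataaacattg
alphaTub84B (TATA box, chr3R:7086499-7086628, + strand): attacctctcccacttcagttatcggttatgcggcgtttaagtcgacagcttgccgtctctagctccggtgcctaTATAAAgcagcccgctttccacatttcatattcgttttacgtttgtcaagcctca

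The comparison set for promoters was made of single-gene promoters, those whose TSS had no TSS of another protein-coding gene within 500 bp, with 7 core peak genes added that met this from the summit but not from the TSS. Of these 10433 genes, 663 had a core promoter peak, a background of 6.35%. Another 894 had an optimal peak elsewhere within 500 bp, and 8876 had none and are called promoters without a peak here. Among these 8876, 2114 had a weaker peak of the pooled list within 100 bp, and 5178 had no pooled-list summit within 500 bp. The pooled list is labelled as peaks and background, so a weaker pooled-list peak need not be a site of CrebB binding. Among the 3118 eligible genes with a core peak or a pooled-list peak at the promoter, a core peak of the optimal list was present at 663, or 21.3%. The same rule applied to the 3915 strongest peaks of each replicate called 6.97% of the 10433 promoters in replicate 1, 6.37% in replicate 2 and 4.95% in replicate 3. The lists give no read numbers, so the depth of each library is unknown, and every interval below is a 95% interval that covers the counting of peaks or genes only.

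A few core promoter peaks were among the strongest CrebB peaks of the genome, but most were not. The signal value, which is the authors' own value per peak on a scale that is not stated, had a lowest value of 152.0, a median of 201.4 and a highest value of 2859.8 over the 679 peaks. The first 15 ranks of the optimal list held 3 core promoter peaks, the first 100 held 6 and the first 1000 held 107. CG14100, whose summit lay 95 bp upstream of its TSS, ranked 3 in the optimal list and 4, 2 and 3 in replicates 1, 2 and 3. Ugalt, which encodes a UDP-galactose transporter of the Golgi, ranked 4, and its ranks in the replicates were 3, 4 and 5. PNPase, which encodes an RNA-degrading enzyme of mitochondria, ranked 14 in the optimal list and 16, 16 and 15 in the replicates. These promoters kept nearly the same place in every replicate.

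The next strongest core promoters included genes of protein synthesis, secretion and glycosylation. eIF6, a ribosome biogenesis factor, had a signal of 1379.0, with ranks of 25, 27 and 66 in the replicates. Alg3, a mannosyltransferase of the endoplasmic reticulum, had 1138.7 and ranks of 48, 54 and 70. Hpf1, a cofactor of poly(ADP-ribose) polymerase on histones, had 971.1 and ranks of 89, 87 and 112. The ribosomal protein gene RpS4 followed with 884.9, then TRAM, which assists the translocation of nascent chains into the endoplasmic reticulum, with 862.2, and yps, a Y-box RNA-binding protein gene, with 815.6. CG5335 (783.2), the elongation factor gene eEF1gamma (777.4), CG10413 (743.0), CG11857 (732.3), the organic anion transporter gene Oatp30B (708.1) and the glutathione transferase gene GstE13 (695.9) completed the 15 strongest. All 15 were supported by each replicate, meaning that the replicate had a summit within 100 bp among its own 3915 strongest peaks.

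As a group, core promoter peaks ranked lower than the other optimal peaks. Their median rank was 2296 of 3915, against 1867 for the other optimal peaks, where rank 1 is the highest signal, and their median signal was 201.4 against 222.4. The peaks more than 100 and up to 500 bp from the TSSs of 1 gene had a median rank of 1640, those near several genes 1895 and those far from a TSS 1953.5. When the rule was applied to each replicate's own strongest peaks, the median rank was 2093.5 for core promoter peaks and 1905 for the others in replicate 1, 2192 and 1895.5 in replicate 2, and 2335 and 1896.5 in replicate 3. The differences in rank of 188.5, 296.5 and 438.5 had the same direction in 3 of 3 replicates (exact sign-flip permutation test over replicates, two-sided, p = 0.25, the smallest that 3 replicates allow). All p-values here measure only the spread between these 3 replicates. When the optimal list was divided by signal into 4 bins of near equal size, the highest bin (ranks 1 to 979) held 15.2% of the core promoter peaks, against 27.1% of the other peaks. The lowest bin (ranks 2937 to 3915) held 207, or 30.5%, against 23.9%.

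**Figure D1:**
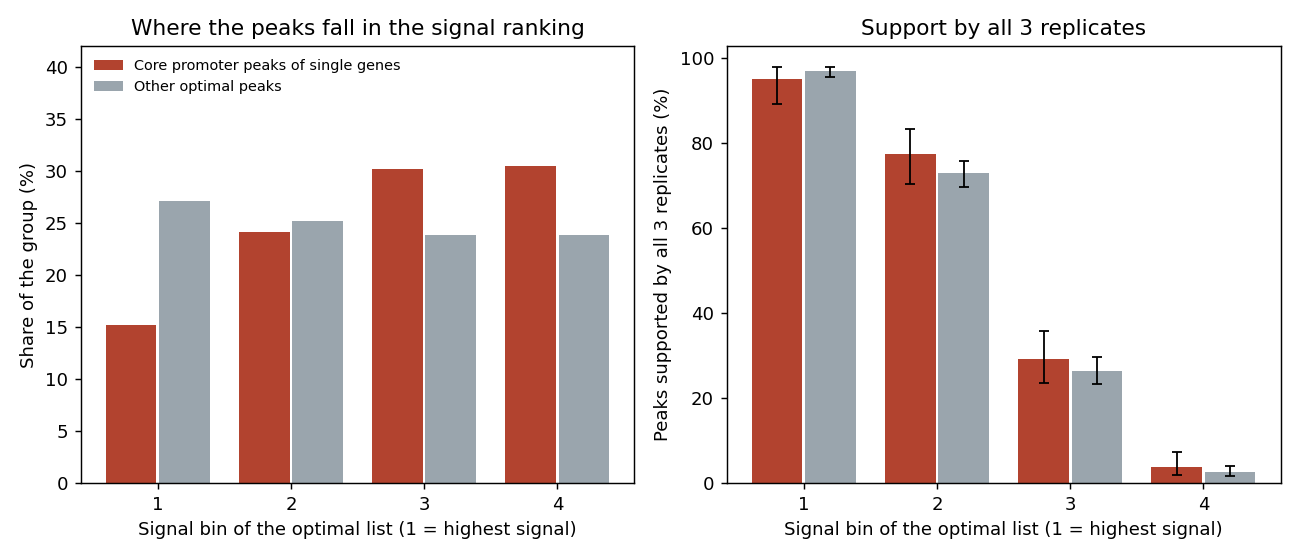
Left, share of each group of optimal peaks (%) in each of 4 bins of the list by signal; right, share of the peaks in that bin (%) supported by all 3 replicates, with 95% Wilson intervals. Core promoter peaks of single genes (red) lie left of the other optimal peaks (grey); they make up 10.5% of the highest bin and 21.1% of the lowest, and the intervals of support overlap within each bin.

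The cut-off at 100 bp separated peaks of like signal. The 18 core promoter peaks with a summit 98 to 100 bp from the TSS had a median signal of 247.5, and the highest were Hpf1 (971.1), Oatp30B (708.1) and Jwa (487.9). The 13 peaks that met every other part of the rule but lay up to 3 bp beyond the cut-off had a median of 248.6, led by CG17726 (772.3), CG7668 (421.7) and the myosin light chain gene sqh (373.2). At the other end of the list stood CG5853 (152.2), Tpr2 (152.2) and Mtpalpha (152.0), and replicates supported CG5853 only.

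Support by all 3 replicates was less frequent for core promoter peaks than for the other optimal peaks. It was found for 293 of 679 peaks (43.2%, Wilson interval 39.5% to 46.9%), against 1666 of 3236 other optimal peaks (51.5%, 49.8% to 53.2%), a difference of -8.33 percentage points (Newcombe interval -12.4 to -4.20). No replicate supported 12 core promoter peaks (1.77%), against 54 other peaks (1.67%). The strongest of the 12 were Ssk, a septate junction gene, with a signal of 212.6, Tep3, a thioester protein gene, with 174.9, and CG17574 with 165.6. The peaks are not independent of the replicate lists, from which the authors derived the optimal list.

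The difference was largest in replicate 3. Replicate 1 supported 81.9% of the core promoter peaks, against 77.7% of the others, and replicate 2 supported 76.1% against 77.8%. Replicate 3 supported 61.7% (Wilson interval 58.0% to 65.3%), against 75.9%. The differences of 4.17, -1.61 and -14.2 percentage points had no common direction (exact sign-flip permutation test, two-sided, p = 0.75, with 0.25 the smallest possible). Support by replicates 1 and 2 alone was 63.9% for both groups, a difference of -0.0194 percentage points. In the full replicate lists of 30000 peaks, 97.5%, 96.5% and 91.2% of the core promoter peaks had a summit within 100 bp in replicates 1, 2 and 3, against 96.9%, 96.2% and 94.7% of the others. The median rank of those found was 2043, 2242 and 2757 for core promoter peaks, against 1948, 1889 and 1870 for the others.

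**Figure D2:**
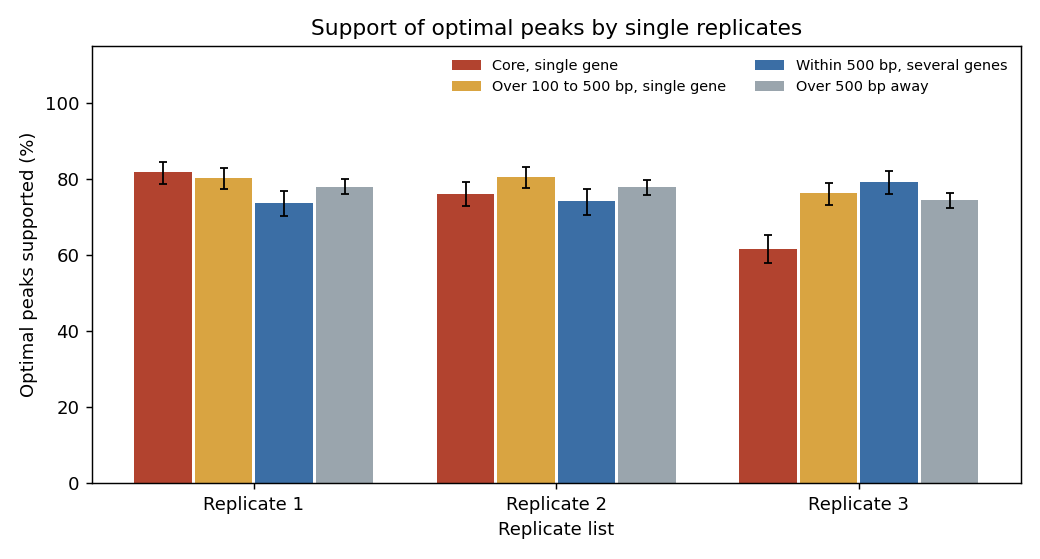
Share of optimal peaks (%) with a summit within 100 bp among the 3915 strongest peaks of each replicate, by distance class, with 95% Wilson intervals. In replicate 3 the core promoter peaks of single genes stand at 61.7%, below each of the other classes.

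Signal rank moved with support. Within the highest signal bin of the optimal list 95.1% of core promoter peaks were supported by all 3 replicates, against 96.8% of other peaks. In the next 3 bins, from higher to lower signal, the shares were 77.4% against 72.9%, 29.3% against 26.4%, and 3.86% against 2.59%. Weighted by the number of core promoter peaks in each bin, the difference became 2.11 percentage points (interval -0.81 to 5.03), so the direction turned once peaks of like signal were compared. Among the 1957 peaks of lowest signal, replicate 3 supported 44.2% of core promoter peaks against 57.0% (difference -12.8 percentage points, Newcombe interval -18.1 to -7.35). Replicate 1 supported 71.1% against 57.7% (13.4, 8.21 to 18.2) and replicate 2 62.9% against 58.8% (4.03, -1.32 to 9.19). The signal used here comes from the 3 replicates together. At like signal, a shortfall in 1 replicate can therefore come with a surplus in another, and these differences are not independent.

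The 260 core promoter peaks that replicate 3 did not support had a median signal of 175.6, against 227.9 for the 419 that it did. A summit of replicate 3 lay within 100 bp of 200 of the 260, at a median rank of 5876 in that replicate. Their median GC content within 100 bp of the TSS was 47.3%, against 44.8% at the supported ones. Ribosomal protein genes accounted for 3 of the 260 and for 40 of the 419. Of the 88 core promoter peaks at a promoter with an initiator, replicate 3 supported 45.5%, against 64.1% of the 591 without one. Of the 54 with a TCT element it supported 85.2%, against 59.7% of the 625 without. The part of GC content, signal or any other property of replicate 3 in this was not tested.

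Most genes of the optimal list were found again when the rule was applied to single replicates, from which the authors derived that list. Replicate 1 gave 750 core promoter peaks at 731 genes, replicate 2 gave 687 at 670 and replicate 3 gave 523 at 517. Of the 663 genes of the optimal list, replicate 1 shared 520, or 78.4% of the optimal genes and 71.1% of its own. Replicate 2 shared 479 (72.2% and 71.5%) and replicate 3 shared 382 (57.6% and 73.9%). Between replicates, 422 genes were shared by 1 and 2, 326 by 1 and 3 and 312 by 2 and 3. All 3 replicates called a core promoter peak at 251 genes, of which 249 were also called in the optimal list.

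Summits lay slightly upstream of the TSS. The median position was -12 bp, where negative is upstream, with an interquartile range of -51 to 28.5 bp. Of the 679 summits, 398 (58.6%) were upstream, 275 (40.5%) downstream and 6 at the TSS itself, and 409 (60.2%) were within 50 bp. The upstream share was 54.5%, 57.1% and 66.3% in replicates 1, 2 and 3 (59.3% ± 6.22, SD, n = 3; exact sign-flip permutation test against an even split, two-sided, p = 0.25, the smallest possible). The 43 ribosomal protein promoters had a median summit position of 0 bp, against -14 bp at the 636 other peaks.

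**Figure D3:**
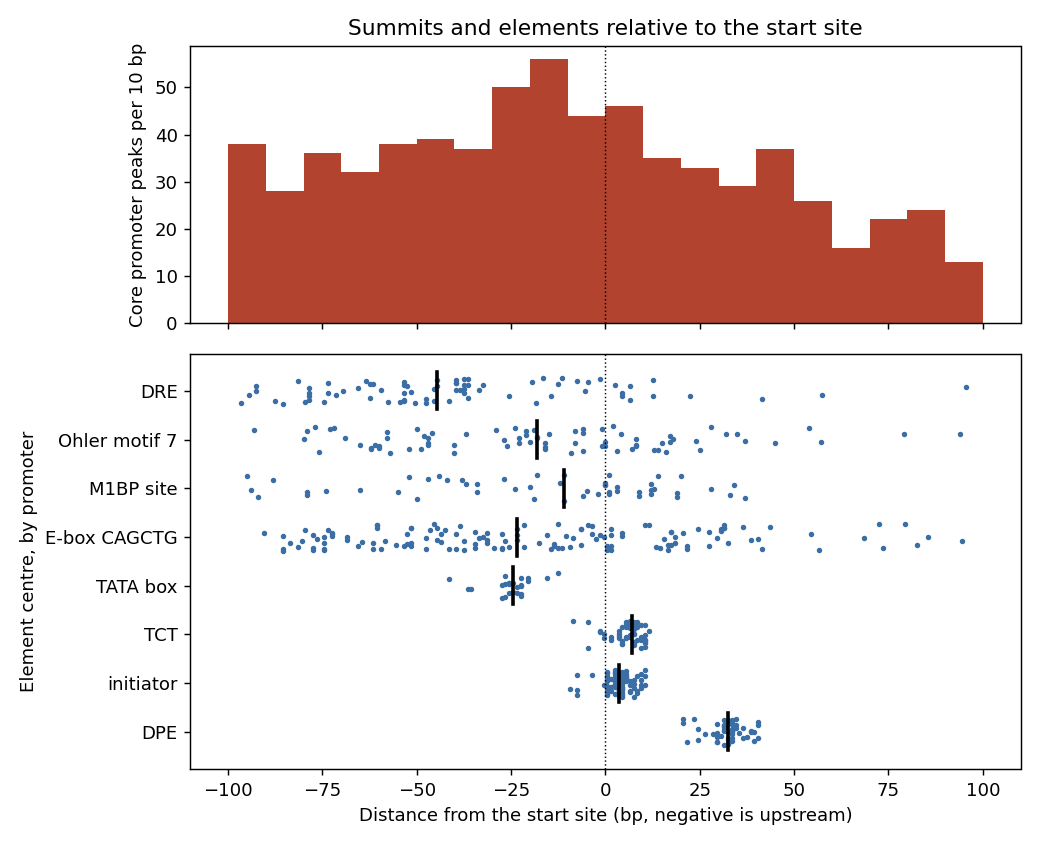
Top, number of core promoter peaks by distance of the summit from the TSS (bp, negative is upstream); bottom, centre of each element found at a core promoter, with 1 point for a promoter and a black bar at the median. DRE sites lie mostly upstream (median -44.5 bp), while TCT, initiator and DPE lie where the search windows place them, at 7, 3.5 and 32.5 bp.

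Promoters with a core peak more often had elements of broadly expressed genes than promoters without a peak, and less often a TATA box. The DPE, which marks many developmentally regulated genes, was also more frequent. The elements were searched within 100 bp of the TSS, on both strands unless stated, at the TSS nearest the summit for core promoter peaks and at the most upstream isolated TSS for promoters without a peak. Core promoters were counted per peak, so a gene with 2 peaks counts at both start sites. The DRE (TATCGATA) was present at 76 of 679 (11.2%), against 437 of 8876 promoters without a peak (4.92%), a difference of 6.27 percentage points (Newcombe interval 4.06 to 8.90). The share was higher in 3 of 3 replicates: 11.6%, 9.90% and 13.6% at the core peaks of replicates 1, 2 and 3, against 4.86%, 5.09% and 4.80% at promoters without a peak there. The M1BP site (GGTCACACT) was at 51 (7.51%), against 254 (2.86%), a difference of 4.65 (2.86 to 6.90). Ohler motif 7 was at 79 (11.6%), against 373 (4.20%), a difference of 7.43 (5.19 to 10.1). The E-box CAGCTG stood for Ohler motif 5 but was searched as this short word, not by a full consensus. It was at 141 (20.8%), against 950 (10.7%), a difference of 10.1 (7.11 to 13.3). Ohler motif 6, searched by its full consensus, was rare, at 12 (1.77%) against 87 (0.980%), with an interval that reached 0.00. The interval included 0 without any 1 of the replicates (differences from 0.50 to 0.75). At least 1 of these 5 elements was present at 294 core promoters (43.3%), against 1820 promoters without a peak (20.5%). DRE and M1BP sites occurred together at only 4 core promoters.

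The strongest promoters with a DRE were eIF6, Alg3 and eEF1gamma, and the sequences of eEF1gamma and RpS10b above show the element centred at -37.5 and -73.5 bp. The strongest with an M1BP site were Adsl, which encodes an enzyme of purine synthesis, with a signal of 410.6, RpL27A with 408.9 and the metalloprotease gene Meltrin with 372.2. Ohler motif 7 was led by TRAM, CG11857 and RpS29 (431.4). DRE centres lay at a median of -44.5 bp, 65 of 76 of them upstream, and 34 of 76 were within 50 bp of the summit. M1BP sites had a median of -11 bp, with 25 of 51 within 50 bp of the summit, and CAGCTG had -23.5 bp, with 72 of 141. Over all single-gene promoters the DRE was present at 5.37%, the M1BP site at 3.40%, Ohler motif 6 at 1.09%, Ohler motif 7 at 4.92% and CAGCTG at 11.6%.

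The TATA box (TATAAA on the strand of the gene, starting 45 to 15 bp upstream) showed the opposite pattern. It was at 25 core promoters (3.68%), against 1014 promoters without a peak (11.4%), a difference of -7.74 percentage points (Newcombe interval -9.10 to -5.93), and at 10.4% of all single-gene promoters. The share was lower in 3 of 3 replicates, with 3.47%, 3.06% and 3.82% against 11.5%, 11.5% and 11.4% in replicates 1, 2 and 3. The stress response gene Gadd45 (464.0), RpL39 (386.7) and the alpha-tubulin gene alphaTub84B (357.5) had the strongest core peaks with a TATA box.

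Of the elements at the start site itself, TCT and DPE were more frequent and the initiator was not. TCT, searched on the strand of the gene as TCTTTC or TCTTTT or CCTTTC or CCTTTT with the second base within 10 bp of the TSS, was at 54 core promoters (7.95%), against 231 promoters without a peak (2.60%) and 3.02% of all single-gene promoters, a difference of 5.35 percentage points (3.51 to 7.65). Ribosomal protein genes carried 36 of the 54. TCT was at 36 of 43 ribosomal protein core promoters (83.7%) and at 18 of the 636 others (2.83%), and without ribosomal protein genes the difference fell to 0.27 percentage points, with an interval that included 0. The DPE (AGACGT or AGTCGT or GGACGT or GGTCGT on the strand of the gene, starting 18 to 38 bp downstream) was at 53 (7.81%), against 249 (2.81%) and 3.21% of all, a difference of 5.0 (3.17 to 7.29). Jwa, CG42788 (453.7) and l(1)G0320 (443.5) were the strongest with a DPE. The initiator (TCAGTT or TCAGTC on the strand of the gene, with the third base within 10 bp of the TSS) was at 88 (12.96%), against 1124 (12.7%) and 12.7% of all, a difference of 0.30 (-2.13 to 3.12). Its replicate differences of 1.85, 1.15 and -4.56 percentage points had no common direction (exact sign-flip permutation test, two-sided, p = 1, adjusted p = 1 over 13 elements). RpL23A, which also has a TCT element, the spectraplakin gene shot (503.1) and CG31886 (402.8) led the initiator promoters.

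Sequences bound by 2 other kinds of regulator were also more frequent. GAGAGA, the repeat bound by GAGA factor, was at 93 core promoters (13.7%), against 750 (8.45%) and 9.57% of all single-gene promoters, a difference of 5.25 percentage points (2.79 to 8.09). None of the 43 ribosomal protein core promoters had it, and the ecdysone-induced nuclear receptor gene Eip75B (495.8) was among the strongest that did. The E-box CACGTG was at 29 (4.27%), against 215 (2.42%) and 2.52% of all, a difference of 1.85 (0.52 to 3.67), with 9 of the 29 at ribosomal protein genes. Its interval reached below 0 without the ribosomal protein genes (0.73, -0.42 to 2.42), within 50 bp of the TSS (0.90, -0.07 to 2.39) and against promoters with a weaker pooled-list peak (1.48, -0.03 to 3.38).

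The full palindromic sequence that CREB proteins recognise was present at few of these promoters within 100 bp of the TSS. The CRE palindrome TGACGTCA was within 100 bp of the TSS of 4 core promoters (0.589%), against 16 promoters without a peak (0.180%) and 0.221% of all, a difference of 0.41 percentage points (0.03 to 1.33). Cmpk, which encodes a pyrimidine nucleotide kinase, had a signal of 351.2 and ranks of 609, 1177 and 786 in replicates 1, 2 and 3. Unr, an RNA-binding protein gene with a role in dosage compensation, had 221.4 and ranks of 1911, 1680 and 2649. CG7656 (160.9) was supported by replicate 1 only and CG6689 (159.5) by none. In 3 of the 4 promoters the palindrome was within 50 bp of the summit. The CRE core TGACG, which the palindrome contains, was at 146 (21.5%), against 1626 (18.3%) and 18.8% of all, a difference of 3.18 (0.15 to 6.52). With 1 replicate left out, whichever it was, the interval of each difference included 0. The differences were then from 0.28 to 0.41 for the palindrome and from 2.42 to 3.36 for the core. Those sets held from 338 to 434 core promoter peaks instead of 679, which widens the intervals. Within bins of GC content both intervals included 0 as well, at 0.38 (-0.20 to 0.97) for the palindrome and 2.01 (-1.21 to 5.22) for the core. None of the 13 elements was present at 172 core promoters (25.3%), CG14100, Ugalt and PNPase among them, against 3627 promoters without a peak (40.9%).

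**Figure D4:**
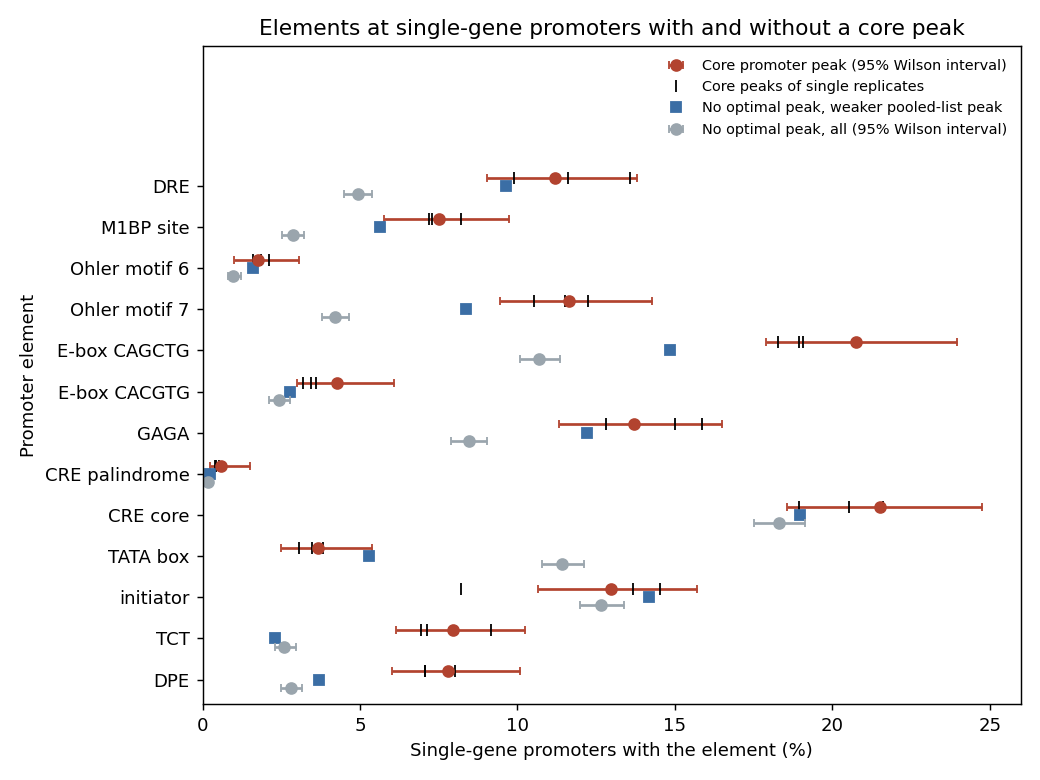
Share of single-gene promoters (%) with each element, for core promoter peaks (red, with 95% Wilson intervals, and black ticks for the core peaks of single replicates), promoters with only a weaker pooled-list peak (blue) and all promoters without an optimal peak (grey, with 95% Wilson intervals). The red and grey points stand apart in 1 direction for the DRE (11.2% against 4.92%) and in the other for the TATA box (3.68% against 11.4%), and the blue squares lie between red and grey for most elements.

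In all, 11 of the 13 elements had an interval of the difference above 0 and 1, the TATA box, had it below 0. For each of these 12 the direction was the same in 3 of 3 replicates (exact sign-flip permutation test, two-sided, p = 0.25, the smallest possible, adjusted p = 0.271 over 13 elements). Against the 2114 promoters with a weaker pooled-list peak the difference was smaller for each of these 12 elements except TCT, where it was 5.63 percentage points. Of these promoters, 9.65% had a DRE, 5.63% an M1BP site, 12.2% GAGAGA and 5.30% a TATA box. The interval stayed above 0 in that comparison for 4 elements: Ohler motif 7 (11.6% against 8.37%), CAGCTG (20.8% against 14.9%), TCT (7.95% against 2.32%) and DPE (7.81% against 3.69%). For the TATA box the difference there was -1.62 percentage points, with an interval that included 0 (-3.18 to 0.29).

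Among all words of 8 letters, those that differed most between the groups overlapped the DRE and the M1BP site. Over 32896 words, counted on both strands within 100 bp of the TSS and compared with no test, ATCGATAG (11.2% of core promoters against 4.55% of promoters without a peak) and TATCGATA (11.2% against 4.92%) led. Next came GGTCACAC (10.01% against 3.75%) and AGTGTGAC (8.69% against 3.18%), which overlap the M1BP site, AACAGCTG (8.98% against 3.74%), which holds the E-box, CAGTGTGA (7.36% against 2.33%), AACAACAA (8.69% against 3.68%) and AAAATACC (7.36% against 2.75%). The reverse complement of AAAATACC, GGTATTTT, matches part of the consensus of Ohler motif 6, which was rare as a whole. At the opposite end stood CTTTTATA (1.91% against 5.59%), the reverse complement of a TATA-like word. The CRE palindrome was at position 3892 of this order, which goes by percentage points and so places rare words low. As a ratio of shares it was 3.27 times as frequent at core promoters, the highest ratio of the 13 elements, against 2.27 for the DRE. That ratio rests on 4 core promoters and 16 promoters without a peak.

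Core promoter peaks lay at longer genes with more annotated start sites than did promoters without a peak, counted per peak, so that a gene with several core peaks enters once for each. The median length of the gene was 5677 bp, against 2014.5 bp at promoters without a peak, and the median first intron was 752 bp, against 108 bp. The genes had 2.06 annotated TSSs on average, against 1.36, and the gene had a single TSS at 45.9% of the core promoter peaks, against 75.7% of the promoters without a peak. The rule itself favours genes with more TSSs, in the optimal list and in each replicate. Any TSS could make a gene a core peak gene or take it out of the set without a peak. The part of this in the differences in TSS number and gene length was not tested. Median GC content within 100 bp of the TSS was 45.3%, against 42.3%. A core promoter lay inside another gene in 5.89% of cases, against 17.3%, and on the X chromosome in 11.3%, against 16.8%. A noncoding RNA start, which the rule does not consider, was within 500 bp in 6.63%, against 3.71%. Each of these differences had the same direction in 3 of 3 replicates (exact sign-flip permutation test, two-sided, p = 0.25, the smallest possible). Promoters with a weaker pooled-list peak stood between in gene length (3867.5 bp), first intron (439 bp), TSSs per gene (1.71), GC content (44.3%) and position inside another gene (10.7%). They did not for the X chromosome (17.4%) or for noncoding RNA starts (3.64%). The X also held 16.5% of the other optimal peaks.

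Ribosomal protein genes were the group with the largest share of core promoter peaks among the 26 gene lists compared. Of 60 single-gene promoters of cytosolic ribosomal proteins, 43 had a core promoter peak (71.7%, Wilson interval 59.2% to 81.5%), against the background of 6.35%. The rule called 44, 40 and 42 of them in replicates 1, 2 and 3. RpS4 ranked 59, 132 and 179 in the replicates, RpL31 (688.4) ranked 132, 157 and 418, RpL11 (665.6) ranked 159, 196 and 269, and RpL30 (652.4) ranked 111, 284 and 352. The 43 peaks had a median signal of 357.5 and a median rank of 736, against 196.7 and 2396 for the other 636 core promoter peaks, and 36 of 43 (83.7%) were supported by all 3 replicates, against 257 of 636 (40.4%). Of the other ribosomal protein promoters, 6 had an optimal peak elsewhere within 500 bp and 11 had none: RpL40, RpS10a, RpL15, RpL21, RpL37-2, RpL22-like, RpS5b, RpL10Aa, RpL5, RpS28-like and RpS26. RpL40, RpL15, RpL37-2 and RpS5b of these had a TCT element.

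Genes of translation factors, of the secretory pathway and of the unfolded protein response had core promoter peaks more often than the background, with median signals of 264.9 for translation factors, 178.9 for the secretory pathway and 186.5 for the unfolded protein response. Of 38 translation factor promoters 9 had one (23.7%, Wilson interval 12.99% to 39.2%): eIF6, eEF1gamma, eEF2 (396.1), eIF2A (376.6), eEF1alpha1, eEF5, eIF2D, eIF4A and eIF3f1. Of 22 secretory pathway promoters 6 had one (27.3%, 13.2% to 48.2%), led by TRAM, the COPII coat gene Sec24CD (270.6), the COPI coat gene deltaCOP (184.7) and the GTPase gene Sar1 (173.2). The unfolded protein response list had 4 of 10 (40.0%, 16.8% to 68.7%), all genes of protein folding in the endoplasmic reticulum. They were the lectin chaperone genes Calr (202.2) and Cnx99A (171.5), the disulfide isomerase gene Pdi (201.5) and the chaperone gene Gp93 (156.9), and Pdi alone was supported by all 3 replicates. Without replicate 1 this list held 1 of 10 and its interval included the background, and without replicate 2 or without replicate 3 it held 2 of 10, above it.

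The cAMP and CREB pathway list had 7 of 32 promoters with a core peak (21.9%, Wilson interval 11.02% to 38.8%). CaMKI, a calcium and calmodulin-dependent kinase gene, had a signal of 258.6, with ranks of 1175, 837 and 4894 in the replicates. Sik3, a salt-inducible kinase gene, had 256.9 and ranks of 1338, 2332 and 1868, and the G protein subunit gene Galphai had 232.8 and ranks of 3110, 1415 and 1660. CrebB itself had core peaks at 2 of its start sites. One, on chrX:18370821-18371216 with the summit 35 bp downstream of a TSS, had 247.0 and ranks of 797 and 1707 in replicates 1 and 2. The other, on chrX:18366249-18366644 with the summit 90 bp downstream, had 178.9 and ranks of 1913 and 5374, and both were missing at that distance from the whole list of replicate 3. nvy (206.3), the adenylyl cyclase gene Ac76E (166.9) and Pka-C1 (163.8), the catalytic subunit of protein kinase A, were the rest. None of the 8 peaks of this list had a CRE palindrome within 100 bp of the TSS, and replicate 3 called 4 of the 32 promoters where replicates 1 and 2 called 7 each. The list held 3 of 32 (9.38%) without replicate 1 and without replicate 2, and in the second case its interval included the background of 3.28%. In this line, reads of the tagged CrebB copy and of the native gene cannot be told apart in the lists.

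Among the remaining lists, insulator and promoter factors had 3 of 14 (21.4%, Wilson interval 7.57% to 47.6%): row (257.3), the TBP-related factor gene Trf2 (211.5) and mod(mdg4). That interval included the background without replicate 1 (1 of 14) and without replicate 3 (2 of 14), and with summits within 50 bp of the TSS (1 of 14). These 6 lists were the ones whose interval lay above the background. Against the background of 21.3% among genes with a core peak or a pooled-list peak at the promoter, 3 of the 6 still did: ribosomal proteins (84.3%), translation factors (47.4%) and the unfolded protein response (57.1%). Of the lists with at least 1 core peak, the others had an interval that included the background and held from 1 to 4 genes with a core peak each, such as the V-ATPase subunit genes VhaSFD (184.3), Vha16-1 and Vha100-2, the receptor genes InR (309.9) and Egfr (166.0), the chromatin genes Su(z)2 (217.2) and kis (204.9), the cyclin gene CycG (287.0) and the splicing factor gene B52 (346.8). Oxidative phosphorylation had 4 of 51 promoters, mitochondrial ribosomal proteins 1 of 19, and Hox and patterning genes 1 of 44, which was hry.

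Of the 26 lists, 8 had no core promoter peak, among them the large families of sensory, cuticle and detoxification genes. None was found at 161 chemosensory receptor promoters (a count of 0, taken as at most 3 counts of the total, allows a share of up to 1.86%), at 126 cuticle protein promoters (up to 2.38%) or at 82 cytochrome P450 promoters (up to 3.66%). None was found at the 13 proteasome, 13 aminoacyl-tRNA synthetase, 10 nuclear pore, 27 trypsin-like protease or 8 chorion and vitelline membrane promoters either, where the limits of 23.1%, 23.1%, 30.0%, 11.1% and 37.5% lie above the background. In single replicates, 2 P450 promoters were called in replicate 1, 2 in replicate 2 and 0 in replicate 3. Only 3 of the 161 chemosensory promoters and 5 of the 126 cuticle promoters had even a pooled-list peak. The P450 promoters had one at 22 of 82, and over all single-gene promoters 3118 of 10433 had a pooled-list or core peak.

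**Figure D5:**
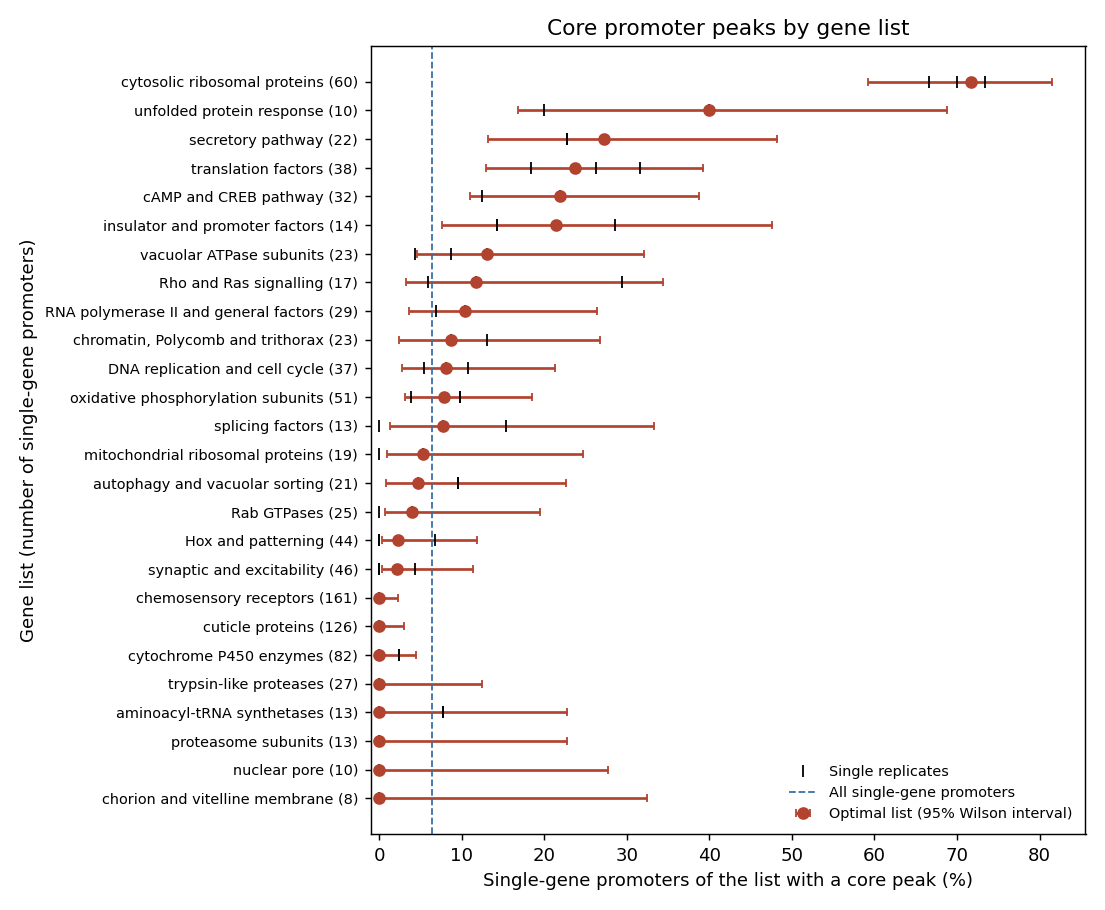
Share of the single-gene promoters of each list (%) with a core promoter peak in the optimal list (red, with 95% Wilson intervals) and in single replicates (black ticks); the dashed line is the share over all 10433 single-gene promoters. Ribosomal proteins stand at 71.7%, with 6.35% for all promoters.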

How the data were processed

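The deposited lists came from ChIP-seq of CrebB in 3 biological replicates, grouped by the antibody label and numbered by the labels. Per the text file that accompanies them, the authors called peaks on dm6 for each replicate and for the replicates together against 1 control alignment, and derived the optimal list from these by an irreproducible discovery rate threshold. Neither aligner nor peak caller is given in the sources used here. The authors' lists give per peak a signal value of unstated scale, used here only to rank and describe peaks within a list, and a −log10 q-value, which set no result. The offset column gave the summit. The replicate lists and the pooled list, which is labelled as peaks and background, each hold 30000 entries. List length therefore carries no information on depth, which is unknown.

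Computed here from these lists, with coordinates written from 1: each summit was set against 19607 TSSs of 13945 protein-coding genes on the chromosome arms 2L, 2R, 3L and 3R and chromosomes 4 and X (Ensembl release 115). A summit within 100 bp of a TSS of 1 gene, and within 500 bp of TSSs of no other, made a core promoter peak. Genes with a TSS that has no TSS of another gene within 500 bp numbered 10426, and 7 core peak genes without one were added. Elements were searched by exact words in the RefSeq copy of the genome, Ohler motifs 6 and 7 by their consensus. Gene lists were matched by symbol, 8 symbols by a synonym and 8 not at all. Shares have Wilson and differences Newcombe intervals at the 95% level. Differences were also computed from the core peaks of each replicate, and their direction was tested by exact sign-flip permutation. Where a test ran over elements, p-values were adjusted by Benjamini and Hochberg. Python 3.11.15, numpy 2.4.6, pandas 2.3.3, scipy 1.17.1 and matplotlib 3.10.9 were used, and the code was tested on simulated data.

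The members, lists and elements were chosen with earlier results of these data known. Named genes followed a rule: the 15 peaks of highest and the 3 of lowest signal, the 3 strongest on each side of the distance cut-off, every promoter with TGACGTCA, the 3 strongest with each other element, up to 4 of each gene list, the 3 strongest with no replicate support and the 8 words of largest difference. The remaining genes of the 4 lists of translation factors, unfolded protein response, secretory and cAMP genes, the genes with several peaks, the ribosomal protein genes without a peak and CTTTTATA were named after their values were seen. Alternatives changed the distances, window, list depth, comparison set, peak set and replicates used.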

Additional observations from a re-analysis of the deposited data

How the results depend on the processing

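The number of core promoter peaks followed the distance rule: 409 with the summit within 50 bp and 1088 within 200 bp, and from 338 to 434 when the peaks had to be supported by both replicates left after 1 was left out, which uses fewer optimal peaks. The lower rank of core promoter peaks kept its direction in all alternatives, with a difference of 188.5 ranks in replicate 1, 296.5 in replicate 2 and 248.5 with summits up to 200 bp. The difference in support by all replicates ran from -10.7 to -0.0194 percentage points with 1 replicate left out, losing its call without replicate 3. Within signal bins, a comparison chosen after seeing the data, it was 2.11, with an interval that included 0 (-0.81 to 5.03). Of the 11 elements more frequent at core promoters, 4 remained so against promoters with a weaker pooled-list peak, where the interval of the TATA box included 0. Of the 6 gene lists above the background, 3 remained so among genes with a pooled-list peak. The difference in median GC content, 2.99 percentage points, was 1.20 in a window of 250 bp and 0.995 against promoters with a weaker pooled-list peak. The causes of these changes were not tested.

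The initiator difference of 0.30 percentage points changed sign against promoters with a weaker pooled-list peak (-1.23), at the most upstream TSS (-1.69), among the peaks of highest signal (-3.26), with support by all 3 replicates (-4.47), for genes with 1 TSS (-3.93), within bins of GC content (-2.23) and with 1 replicate left out (-4.57 to -0.68). Ohler motif 6 turned to -0.23 among the 1957 peaks of highest signal, where the unfolded protein response list held 0 genes against a background of 2.51%. Of the other values of single elements and lists, 337 kept their call, 52 lost it and 2 gained one. Both gains were of the RNA polymerase II and general factors list. It held 6 of 29 with summits within 200 bp and 3 of 23 for genes with 1 TSS. No paired analysis was possible because the series holds 1 group. Depth is unknown, so a promoter without a peak may carry a signal below the reach of these lists.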
